A study of Rattus norvegicus with 138 samples.

Results

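miR-423 is a microRNA, a short RNA that pairs with messenger RNAs through its seed (bases 2 to 8 of the mature strand) and lowers their translation or stability. Its hairpin precursor is cut into 2 mature strands, miR-423-5p from the 5′ arm and miR-423-3p from the 3′ arm, and both are found in blood. In humans, miR-423-5p has been studied as a circulating marker of heart failure, and miR-423-3p has been used as a reference for blood miRNA measurements. Both strands were among the 471 mature rat miRNAs counted in serum here and make up the 2 members described below. They were chosen by measured values: miR-423-5p because its level was lower at 12 mo and because its difference from the surgical control shifted between 6 mo and 12 mo in rats with copper, lead or depleted uranium. The levels at 6 mo and 12 mo are therefore given as a description with no test, and tests are given for 1 mo and 3 mo.

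Serum was drawn 1, 3, 6 and 12 mo after surgery from male Sprague-Dawley rats that were 3 months old when metal pellets were placed in both gastrocnemius muscles, 2 pellets in each. The pellets were of tungsten (W), cobalt (Co), nickel (Ni), copper (Cu), iron (Fe), lead (Pb), aluminium (Al), depleted uranium (DU) or tantalum (Ta), an inert metal that served as the control for the surgery. Every rat, the Ta rats included, thus had surgery and carried metal. The libraries form 35 groups of 4, except W and Ta at 6 mo with 3 each, and no Ni group at 12 mo was analysed. The series text gives 8 rats per group, the labels number the libraries of a group from 1 to 4 without naming rats, and p-values therefore measure only the spread between these libraries.

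The reference sequence of miR-423-5p is shown with its seed in capitals, because the seed defines which miRNAs could share its targets, and the hairpin is shown with the miR-423-5p strand in capitals to place it on the precursor (RefSeq, GRCr8, minus strand, chr10:62412272-62412350; no coordinates come from the count table, and the submitters' notes name another build). miR-423-3p is named only.
miR-423-5p: uGAGGGGCagagagcgagacuuuu
mir-423 hairpin: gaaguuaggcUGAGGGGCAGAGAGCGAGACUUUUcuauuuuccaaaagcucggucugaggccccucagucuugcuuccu
The mature strand has 24 bases, 10 of them G, and it occupies bases 11 to 34 of the 79 bases of the hairpin. The hairpin lies within the span of Nsrp1, a gene for a nuclear speckle protein that regulates splicing. Of 693 distinct mature rat names in the RefSeq table, 2 have the seed GAGGGGC, miR-423-5p itself and miR-3573-5p, and of these miR-423-5p alone was in the count table.

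Across all libraries miR-423-5p took 0.613% of the counts and ranked number 21 of 471 by its total, and miR-423-3p took 0.111% and ranked number 54. miR-423-5p was counted in every library, with 5 to 63457 counts. miR-423-3p was counted in 130 libraries, with up to 6554 counts, and was at 0 in the other 8. Library totals ran from 518 to 6406599 counts with a median of 685384.5, and 6 libraries had fewer than 20000 counts: replicate 4 of DU, replicate 3 of Ni, replicate 3 of Al and replicate 3 of Ta at 3 mo, replicate 3 of W at 12 mo and replicate 1 of Co at 1 mo. Libraries of 3 mo were the shallowest by their median, 286094 counts with 99.5 miRNAs detected, while those of 1 mo had medians of 1114449 counts and 216 miRNAs. Whether libraries of different months were prepared or sequenced in separate batches is not given in the sources used here, so month and any such batch cannot be told apart.

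Levels below are in CPM, counts scaled to library size with TMM factors over all libraries. They are relative to the other miRNAs of a library, so less miR-423 and more of other miRNAs cannot be told apart. Fewer source cells and less release per cell cannot be told apart either. After the TMM scaling they are not shares of a library, and levels summed over a list reached up to 1241551 CPM. At 1, 3, 6 and 12 mo the median level of miR-423-5p was 9223, 3717, 4764 and 3983 CPM. For miR-423-3p the medians of the same months were 1718, 587, 1069 and 1190 CPM. Both arms thus stood highest at 1 mo and lowest at 3 mo by their medians, and the later months lay between.

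Both arms fell between 1 mo and 3 mo, and so did most of the miRNAs that were called. Averaged with equal weight over the 8 groups sampled at every month (Ta among them, Ni left out), miR-423-5p fell by 1.42 ± 0.24 on the log2 scale (SE) and miR-423-3p by 1.78 ± 0.36. The adjusted p-values were 3.7e-07 for miR-423-5p and 2.1e-05 for miR-423-3p (edgeR quasi-likelihood test, Benjamini-Hochberg over 320 miRNAs). Of all 320 miRNAs tested, 114 fell (35.6%) and 26 rose, so that 43.8% were called, and the median difference of all tested was -1.62 on the log2 scale. miR-423-5p fell by 0.20 less and miR-423-3p by 0.15 more than that median. Of the 320 miRNAs, 173 had a more negative difference than miR-423-5p in this average. Single groups of the same fit, given without a test, differed in this count. It was 94 (Pb), 101 (DU), 119 (Al), 127 (Ta), 127 (Cu), 161 (W), 207 (Co) and 247 (Fe). The group medians of all miRNAs ran from -4.09 (Co) to -0.03 (Ta). The rank in the average thus does not describe each group. Where the arms stood against the median of all miRNAs also moved with the setting. With RLE size factors the median was -1.28, miR-423-5p lay 0.71 above it and miR-423-3p 0.076 above it. With the haemolysis index described next as a covariate the median was -1.04, and miR-423-5p fell by 0.45 more and miR-423-3p by 0.71 more than it. In the Ta libraries alone the median of 199 miRNAs was -0.33, with miR-423-5p 0.59 and miR-423-3p 1.00 below it. The rule that chose the members does not name the baseline of the fall at 12 mo, so libraries of 1 mo may have served in the choice.

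The size of that fall depended on how libraries were scaled. With RLE size factors the difference was -0.56 for miR-423-5p (adjusted p = 0.048) and -1.20 for miR-423-3p (adjusted p = 0.0051) in edgeR, and the calls split into 35 that rose and 87 that fell. In the Ta libraries alone the differences were -0.92 ± 0.70 for miR-423-5p and -1.32 ± 0.96 for miR-423-3p (adjusted p = 0.47 and 0.44 with edgeR). By metal, without a test, the difference of miR-423-5p ran from -3.65 ± 0.73 in Pb to 0.18 ± 0.65 in Fe, and that of miR-423-3p from -3.58 ± 1.10 in Co to -0.19 ± 0.99 in W. Other values moved with the months too. The haemolysis index is log2 of miR-451-5p over miR-23a-3p, and it goes up when red cells burst into serum. It also goes up where miR-23a-3p is lower. Its median was 0.96 at 3 mo and -2.19 at 1 mo. Median miR-451-5p was 3855 CPM at 3 mo and 1633 CPM at 1 mo. In the libraries under 20000 counts, where few counts set it, the index ran from 0 to 11.8. With that index as a covariate the differences were -1.49 for miR-423-5p and -1.76 for miR-423-3p.

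Other serum miRNAs were read from lists in the same contrast, in which 140 of 320 miRNAs (43.8%) were called. Of 12 miRNAs often used as references in blood or steadily present in it, 2 rose and 4 fell between 1 mo and 3 mo, with a median of -0.31. miR-191a-5p fell by 2.97 ± 0.31, and miR-30e-5p rose by 3.18 ± 0.34 (adjusted p = 2.4e-14 and 2.6e-14 with edgeR). Of 7 erythrocyte markers tested, 1 rose and 2 fell (median -0.36), with miR-451-5p, the defining red cell miRNA, higher by 1.97 ± 0.36 (adjusted p = 3.5e-06, edgeR). Of 6 platelet markers 2 rose and 2 fell. Those that rose were miR-223-3p, by 2.75 ± 0.41, and miR-199a-3p, by 1.82 ± 0.37. Those that fell were miR-24-3p, by 1.38 ± 0.21, and miR-126a-3p, by 1.07 ± 0.46. Of 7 heart and skeletal muscle markers 2 rose and 1 fell, and of 4 liver markers 2 rose and 2 fell (median 0.21). The muscle markers miR-133a-3p, miR-133b-3p, miR-208a-3p and miR-499-5p had SEs from 1046 to 5956, and the platelet marker miR-142-3p had 1650. The differences of these markers were thus not estimated, and they do not count as unchanged. The summed levels of the 12 reference miRNAs had a median of 90061 CPM (35321 to 472380) at 3 mo and 308230 CPM (117972 to 1241551) at 1 mo. Summed platelet markers had a median of 28938 CPM (2633 to 117187) at 3 mo and 62980 CPM (5768 to 101203) at 1 mo. Both sums thus had lower medians at 3 mo, as both arms of miR-423 had, but they are not separate, because miR-24-3p is in both lists. Within the reference list, miR-191a-5p alone had a median of 35614 CPM at 3 mo and 242716 CPM at 1 mo. The reference sum thus leans on miR-191a-5p and does not show that the 12 miRNAs moved together. Summed erythrocyte markers had a median of 17782 CPM (7900 to 746169) at 3 mo and 12180 CPM (5180 to 33377) at 1 mo. Summed muscle markers had a median of 2675 CPM (0 to 30295) at 3 mo and 2784 CPM (762 to 17486) at 1 mo, and summed liver markers 70237 CPM (8557 to 219095) at 3 mo and 70427 CPM (26599 to 198193) at 1 mo. The ranges of all 5 sums overlapped between the months. miR-451-5p was at 0 in 1 of 36 libraries at 3 mo, and miR-122-5p, the defining liver miRNA, in 0. Whether these markers have a part in the fall of miR-423 was not tested beyond the haemolysis covariate.

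**Figure D1:**
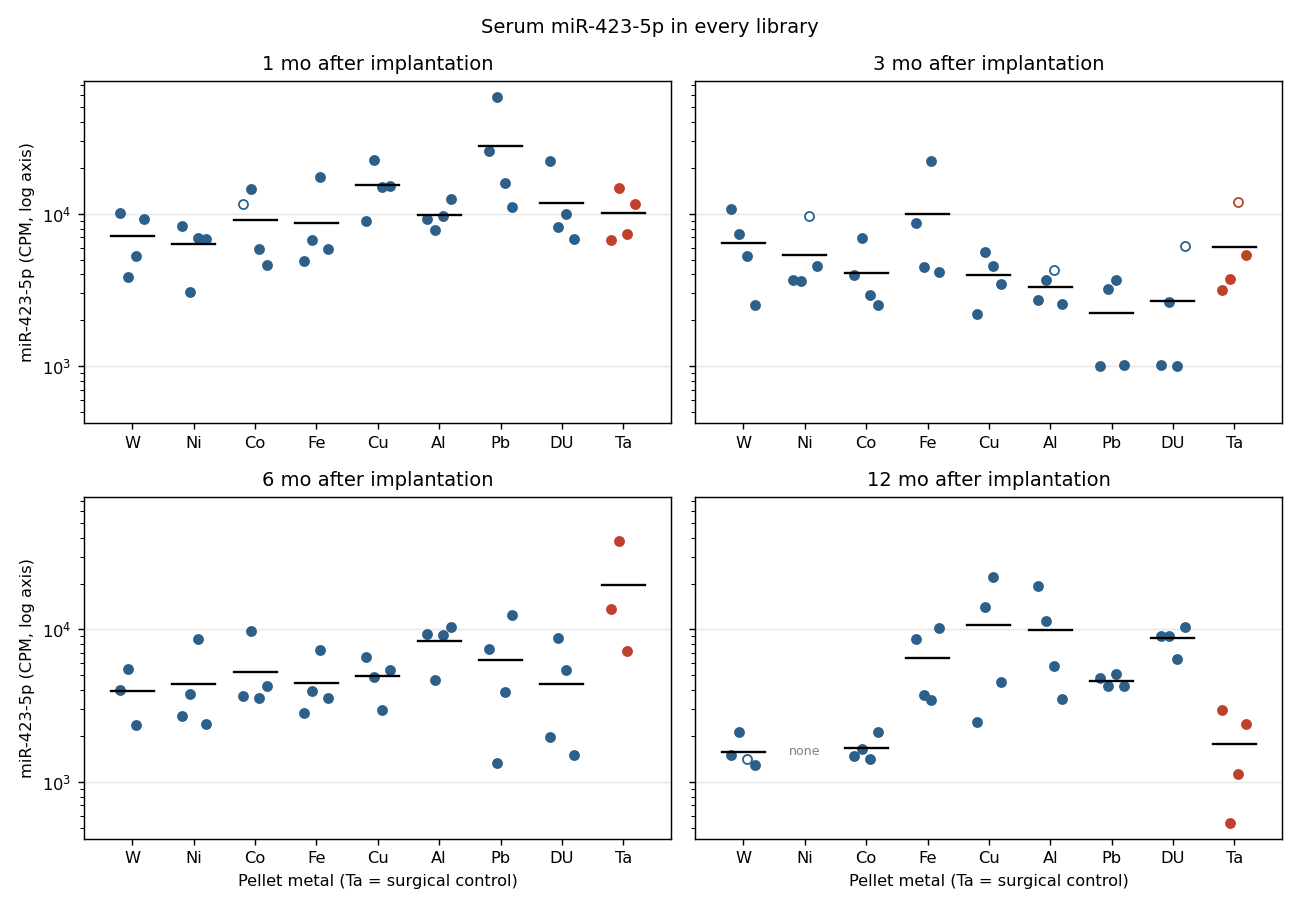
Level of miR-423-5p in every library (CPM on a log axis), with 1 panel per month and metals side by side, Ta at the right in red. Points are libraries, black lines are group means, and open points are libraries under 20000 counts. The 4 Ta libraries of 12 mo sit between 535 and 2980 CPM, and the 3 Ta libraries of 6 mo between 7189 and 38120 CPM.

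At 1 mo no metal differed from Ta in either arm past the threshold, and all 8 metals overlapped with Ta. miR-423-5p had its highest mean in Pb, with 25914, 58714, 16026 and 11152 CPM, against 6757, 14701, 7377 and 11586 CPM in Ta. The Pb libraries lay in the upper part of the range or above it, and 3 of 4 exceeded every Ta library. The difference was 1.59 ± 0.53 on the log2 scale, with an unadjusted p of 0.0046 and an adjusted p of 0.31 (edgeR, 270 miRNAs), and without replicate 2 of Pb it was 0.85. The lowest means were 7097 ± 3012 CPM in W and 6303 ± 2263 CPM in Ni (SD, n = 4 each), with 10105 ± 3740 CPM in Ta (n = 4). Cu had 8947, 22580, 14900 and 15244 CPM, and 3 of its 4 libraries exceeded every Ta library too, with a difference of 0.65 ± 0.52.

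For miR-423-3p at 1 mo the highest value was in Co, and it came from 1 library. The Co libraries had 16163, 1987, 2280 and 1329 CPM, against 1657, 2110, 1339 and 1313 CPM in Ta. The first of these Co libraries held 12213 counts in all, 482 of them from miR-423-3p. The fitted difference was 1.81 ± 0.54 (unadjusted p = 0.0017, adjusted p = 0.25, edgeR), and without that library it was 0.15. Scaled by library totals alone it was 2.72 with an adjusted p of 0.045 in edgeR, past the threshold, where 3 of 270 miRNAs were called. Pb had 2676, 3168, 1745 and 3331 CPM of miR-423-3p, a difference of 0.87 ± 0.52 (adjusted p = 0.48, edgeR). In Pb, both arms thus had higher means than in Ta at 1 mo, and neither difference passed the test.

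At 3 mo the spread between libraries was wider and again no metal differed from Ta past the threshold. Pb had 997, 3191, 3702 and 1021 CPM of miR-423-5p and DU had 1014, 2620, 1007 and 6123 CPM, against 3178, 3733, 11958 and 5393 CPM in Ta. The high DU value comes from a library of 518 counts and the high Ta value from one of 1645 counts. The fitted differences of miR-423-5p ran from -1.10 ± 1.03 in Pb to 0.72 ± 1.02 in Fe. miR-423-3p ranged from -1.35 ± 1.84 in Al to 1.10 ± 1.83 in W, with 7, 950, 0 and 1263 CPM in the Ta libraries. The Ta libraries of that arm thus included 1 near 0 and 1 at 0, the second of them the library of 1645 counts.

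Over the 8 metals, each arm was called in 0 comparisons at 1 mo and 0 at 3 mo with edgeR, and in 0 of 16 with DESeq2. At an unadjusted p under 0.05, edgeR counted 1 of 8 metals for each arm at 1 mo and 0 of 8 at 3 mo. Of all miRNAs, 22 (Fe and Cu) to 37 (Pb) of 270 were under that p at 1 mo. At 3 mo, 9 (Cu and Al) to 43 (Co) of 167 were. edgeR made few calls of any miRNA in these comparisons: at 1 mo Fe and Pb each called 0.37% of 270 miRNAs and the other 6 metals 0%, and at 3 mo Co called 1.2% of 167 and the other 7 metals 0%. DESeq2 made more calls, 2 to 12 miRNAs per metal at 1 mo and 3 to 25 at 3 mo. Its shares at 1 mo were 0.741% for Co, 1.11% for Ni and for Cu, 1.85% for Fe, 2.59% for W, 3.33% for DU, 4.07% for Pb and 4.44% for Al. At 3 mo they were 1.8% for Cu, 2.99% for Al, 4.19% for W, for Pb and for DU, 5.39% for Ni, 7.78% for Fe and 15% for Co. Averaged over the 8 metals, miR-423-5p differed from Ta by 0.20 ± 0.39 and miR-423-3p by 0.39 ± 0.40 at 1 mo (adjusted p = 1.0 and 0.89, edgeR), where 3.33% of miRNAs were called. At 3 mo the averages were -0.22 ± 0.75 and -0.17 ± 1.34 (adjusted p = 1.0 for each, edgeR), where 4.19% were called. The direction of the miR-423-5p average at 1 mo turned with RLE size factors (-0.08) and with library totals alone (-0.10), and that of miR-423-3p at 3 mo turned with RLE size factors (0.20). The median of all miRNAs in the average at 1 mo also moved with the scaling, from 0.19 with TMM factors to -0.08 with RLE size factors.

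**Figure D2:**
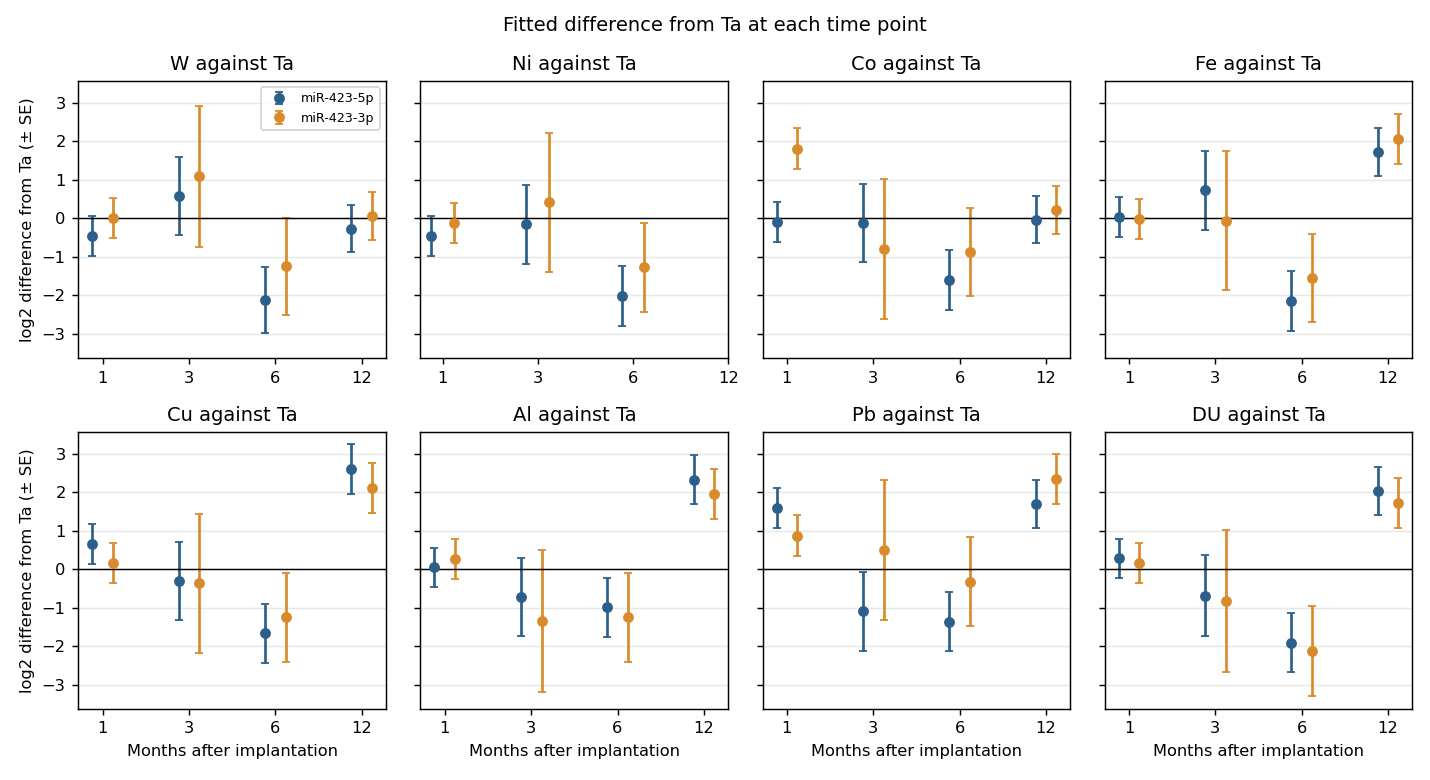
Fitted log2 difference of each metal from Ta at 1, 3, 6 and 12 mo, for miR-423-5p (blue) and miR-423-3p (orange), with bars of 1 SE. At 12 mo Fe, Cu, Al, Pb and DU lie between 1.69 and 2.59 for miR-423-5p, while W and Co lie at -0.27 and -0.03; Ni has no value at 12 mo.

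The levels at 6 mo and 12 mo follow, as the values by which miR-423-5p was chosen or from the same contrasts, with no test. At 6 mo the 8 metals had group means of miR-423-5p between 3940 CPM in W and 8406 CPM in Al, against 13583, 38120 and 7189 CPM in the Ta libraries. Of the 3 Ta libraries, 2 were above every metal library of the month. Cu had 6596, 4850, 2975 and 5419 CPM, and W had 3976, 5484 and 2360 CPM. In these 2 metals every library lay below every Ta library, and the other 6 overlapped with Ta. Every library below every Ta library was found for 7.72% of the 272 miRNAs tested in Cu and 9.56% in W. Pb had 7482, 1339, 3870 and 12357 CPM, and DU had 1973, 8743, 5416 and 1510 CPM. Fitted differences from Ta were negative in all 8 metals and ran from -2.15 ± 0.78 in Fe to -0.99 ± 0.76 in Al, with an average of -1.73 ± 0.52. Without replicate 2 of Ta, the library at 38120 CPM, the average was -0.61 and Al stood at 0.19.

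For miR-423-3p at 6 mo, the 3 Ta libraries had 2869, 2821 and 2574 CPM. In 7 of 8 metals every library was below all of them. The shares of the 272 miRNAs that were placed so were 9.56% for W, 5.51% for Ni, 5.15% for Co, 7.72% for Fe, 7.72% for Cu, 4.41% for Al and 9.19% for DU. Pb, where the share was 12.9%, was the exception for miR-423-3p, with 141, 1949, 990 and 4849 CPM. DU had 1075, 1213, 82 and 0 CPM, and Al had 1301, 1265, 1399 and 207 CPM. Cu had 1173, 1231, 825 and 622 CPM. The fitted difference averaged over the metals was -1.24 ± 0.81. The median of all 272 miRNAs in that average was -0.49, with 83 miRNAs below miR-423-3p and 69 below miR-423-5p.

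Other sums also differed between the metals and Ta at 6 mo. Summed erythrocyte markers had medians of 7945 CPM (Al) to 16942 CPM (Fe) over the 8 metals, and the 3 Ta libraries ran from 23009 to 28780 CPM with a median of 23955. No library of W (up to 16042 CPM), Ni (15575), Cu (16323) or Al (21929) reached the lowest Ta library, while Co, Fe, Pb and DU overlapped with Ta. The summed reference miRNAs had medians of 124212 CPM (Pb) to 366263 CPM (Cu) in the metals and 539316 CPM (184768 to 572632) in Ta. Every metal thus had a lower median than Ta in both sums, and in the reference sum all 8 metals overlapped with Ta. The 2 sums are not separate, because miR-16-5p and miR-185-5p are in both lists. Over all libraries of 6 mo the median was 181720 CPM for miR-191a-5p, of the reference list, and 254471 CPM for the reference sum. Summed platelet markers had medians of 40860 CPM (W) to 56185 CPM (Ni) in the metals and 38128 CPM (35145 to 51638) in Ta. Summed muscle markers had medians of 2337 CPM (Cu) to 15224 CPM (Ni) in the metals and 4988 CPM (3831 to 7885) in Ta, and summed liver markers 67953 CPM (Cu) to 154404 CPM (Al) in the metals and 114761 CPM (102670 to 188808) in Ta. miR-451-5p and miR-122-5p were counted in all 34 libraries of 6 mo, and miR-1-3p was at 0 in 6. The part of these markers in the levels of miR-423 at 6 mo was not tested.

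**Figure D3:**
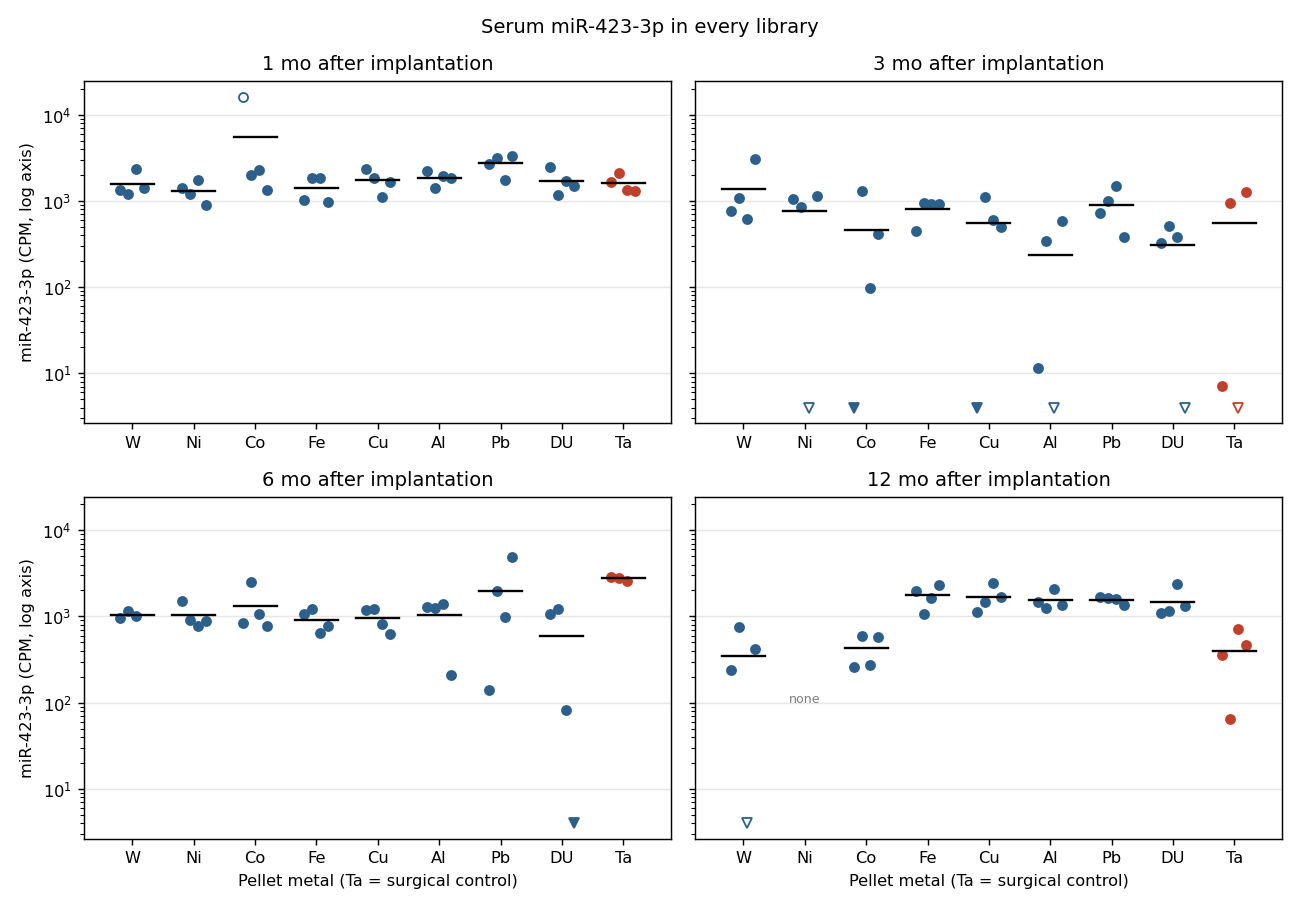
Level of miR-423-3p in every library (CPM on a log axis), with 1 panel per month and Ta at the right in red. Points are libraries, lines are group means, open symbols are libraries under 20000 counts, and triangles at the lower edge are libraries with 0 counts (6 at 3 mo, 1 at 6 mo and 1 at 12 mo). At 12 mo the 4 Ta libraries lie between 65 and 708 CPM, and at 6 mo the 3 Ta libraries lie between 2574 and 2869 CPM.

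At 12 mo the metals fell into a higher and a lower set. Cu had 2453, 13939, 22115 and 4550 CPM of miR-423-5p. Al had 19128, 11323, 5740 and 3484 CPM. DU had 9118, 8986, 6432 and 10353 CPM. These 3 metals reached the highest levels of the month, and in DU the libraries lay close together. Fe had 8698, 3703, 3435 and 10173 CPM. Pb had 4767, 4284, 5069 and 4264 CPM, the group with the smallest SD relative to its mean among the higher set. W had 1493, 2123, 1423 and 1281 CPM, Co had 1479, 1636, 1421 and 2107 CPM, and Ta had 2980, 535, 1131 and 2402 CPM. The W value of 1423 CPM comes from 5 counts in a library of 3789 counts, too few to place it. Every library of Fe, Al, Pb and DU was above every Ta library, while Cu, W and Co overlapped with Ta. That position was held by 11.2% of 224 miRNAs in Fe, 4.02% in Al, 5.8% in Pb and 3.12% in DU, and by 6.25% in Cu, 0.446% in W and 1.79% in Co. The fitted differences from Ta were 1.73 ± 0.63 for Fe, 2.59 ± 0.65 for Cu, 2.32 ± 0.64 for Al, 1.69 ± 0.63 for Pb and 2.03 ± 0.63 for DU, but -0.27 ± 0.61 for W and -0.03 ± 0.61 for Co. In order of mean level, Cu, Al, DU, Fe and Pb came before Ta, Co and W, and only the step between Pb and Ta exceeded the larger of the neighbours' SDs.

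miR-423-3p gave the same 2 sets at 12 mo. Cu had 1133, 1465, 2462 and 1685 CPM, Pb had 1661, 1618, 1590 and 1345 CPM, and DU had 1107, 1143, 2394 and 1307 CPM. Fe had 1997, 1054, 1642 and 2324 CPM, and Al had 1483, 1237, 2103 and 1373 CPM. All 20 of these libraries lay above every W, Co and Ta library, a position held by 0.446% of the 224 miRNAs, which is miR-423-3p alone; the sets were formed with these values in view, so nothing is read from that share. W had 242, 746, 0 and 420 CPM, Co had 257, 598, 275 and 582 CPM, and Ta had 356, 65, 708 and 464 CPM. The W library at 0 held 3789 counts in all, too few to place it. Fitted differences from Ta ran from 1.72 ± 0.64 in DU to 2.34 ± 0.66 in Pb within the higher set, and were 0.06 ± 0.63 in W and 0.22 ± 0.63 in Co. For miR-423-5p, 19 of the 20 libraries of the higher set were above every library of the lower set. In the average over the 7 metals the difference was 1.44 ± 0.52 for miR-423-5p and 1.49 ± 0.54 for miR-423-3p, beside a median of -0.01 over 224 miRNAs, of which 188 lay below miR-423-5p and 189 below miR-423-3p.

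The 2 sets of 12 mo were seen in the values and are not groups of the study, and other measures differed between them. Library totals had a median of 456086 counts in the higher set and 1138156 in the lower one, and a median of 205 miRNAs were detected in the higher set and 178.5 in the lower one. Summed liver markers had a median of 276719 CPM (76613 to 449916) in the higher set and 156821 CPM (79838 to 251490) in the lower one. Summed heart and skeletal muscle markers had a median of 8066 CPM (1707 to 30157) in the higher set and 3712 CPM (0 to 32094) in the lower one. Summed erythrocyte markers had a median of 13504 CPM (3620 to 31046) in the higher set and 15581 CPM (3983 to 23215) in the lower one, and summed platelet markers 70078 CPM (42060 to 96203) in the higher set and 52944 CPM (27568 to 121309) in the lower one. The summed reference miRNAs had a median of 247178 CPM (103017 to 1037253) in the higher set and 114067 CPM (71652 to 317547) in the lower one. Over all libraries of 12 mo the median was 94753 CPM for miR-191a-5p, of the reference list, and 182483 CPM for the reference sum. All these ranges overlapped between the sets. Their part in the levels of miR-423 was not tested. The defining miR-451-5p and miR-122-5p were above 0 in all 32 libraries of 12 mo, and miR-1-3p, the defining muscle miRNA, was at 0 in 3.

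**Figure D4:**
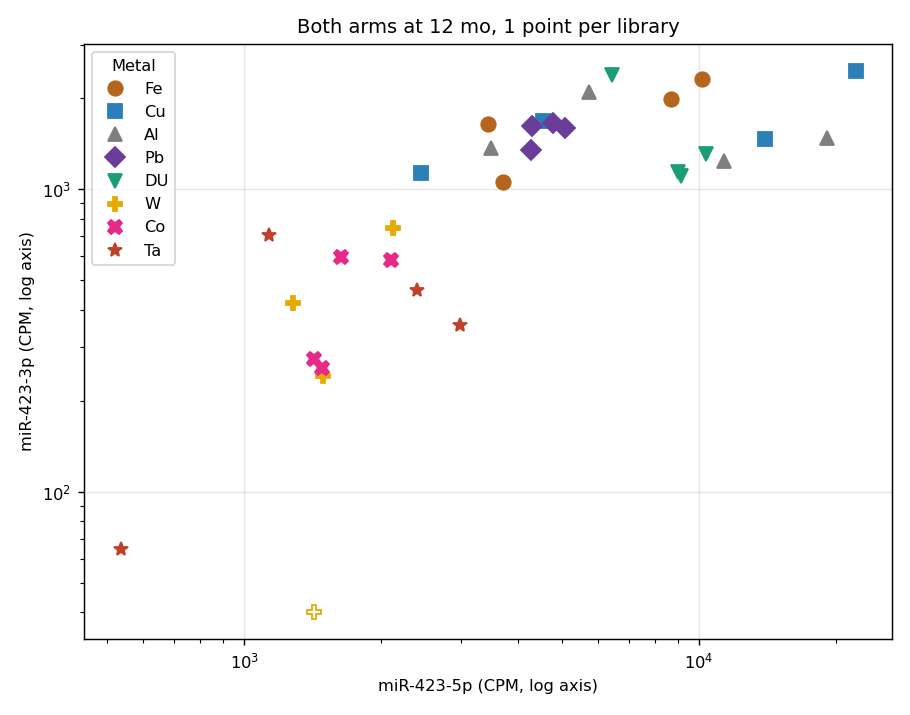
miR-423-5p (x axis) against miR-423-3p (y axis) in the 32 libraries of 12 mo, both in CPM on log axes, with 1 symbol per metal; the open symbol at the bottom edge is the W library with 0 counts of miR-423-3p. Libraries of Fe, Cu, Al, Pb and DU hold 1054 CPM or more of miR-423-3p and those of W, Co and Ta 746 CPM or less.

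Between 6 mo and 12 mo the difference of miR-423-5p from Ta shifted upward by 4.60 ± 0.99 in Cu, 3.03 ± 0.97 in Pb and 4.46 ± 0.99 in DU, the metals named in the choice of the members. Without replicate 2 of Ta at 6 mo these shifts were 3.43 for Cu, 2.43 for Pb and 3.14 for DU. Fe stood at 4.03 ± 0.98 and Al at 3.72 ± 0.98, beside 1.81 ± 0.96 in Co and 2.16 ± 1.02 in W. The corresponding shifts of miR-423-3p were 3.60 ± 1.48 in Cu, 2.44 ± 1.46 in Pb and 4.12 ± 1.49 in DU. All these shifts share the same Ta libraries, and Ta itself moved: mean miR-423-5p in Ta was 10105 ± 3740, 6065 ± 4039, 19631 ± 16328 and 1762 ± 1125 CPM at 1, 3, 6 and 12 mo (SD, n = 4 each, n = 3 at 6 mo). Cu libraries averaged 10764 ± 9067 CPM at 12 mo and 4960 ± 1510 CPM at 6 mo (SD, n = 4 each). Pb averaged 4596 ± 392 CPM at 12 mo and 6262 ± 4782 CPM at 6 mo (n = 4 each), so that the mean in Pb was lower at 12 mo than at 6 mo while its difference from Ta was higher. DU averaged 8723 ± 1646 CPM at 12 mo and 4410 ± 3373 CPM at 6 mo. The means of the 2 months lay closer together than the larger SD in Cu and in Pb, and further apart than it in DU. Averaged over the 8 groups sampled at every month, the difference of 12 mo against 1 mo was -1.39 ± 0.24 for miR-423-5p and -1.09 ± 0.35 for miR-423-3p, and that of 12 mo against 6 mo was -0.50 ± 0.24 and -0.32 ± 0.36. In the Ta libraries alone these were -2.85 and -3.55 for miR-423-5p, and -2.38 and -2.94 for miR-423-3p.

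The 2 strands come from 1 precursor, and their balance was compared within each library as the share of miR-423 counts from the 5p arm, which needs no scaling. At 1, 3, 6 and 12 mo the median share was 85.5%, 83.6%, 80.9% and 78.4%, so the 5p arm dominated in every month. Libraries with at least 20 miR-423 counts ran from 41.8% to 94.9% after 1 mo, from 44.8% to 100% after 3 mo, from 40.7% to 100% after 6 mo and from 61.5% to 92.8% after 12 mo. The mean log2 ratio of the arms was 3.24 at 3 mo (n = 32) and 2.46 at 1 mo (n = 36). That difference of 0.78 did not pass a two-sided permutation test within metals (p = 0.098, 100000 resamples). The mean ratio was higher at 3 mo while the median share was lower, and the SD of the ratio was 2.61 at 3 mo and 0.86 at 1 mo. At 3 mo the mean leans on libraries with few or no counts of miR-423-3p. Where none was counted, the pseudocount sets the ratio.

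Single libraries departed far from the usual share. In 3 libraries with ample miR-423-5p no miR-423-3p was counted: replicate 1 of Co at 3 mo with 1042 counts of miR-423-5p, replicate 1 of Cu at 3 mo with 508, and replicate 4 of DU at 6 mo with 1957. A count of 0 allows a 3p share of up to 0.288% in the Co library, 0.591% in the Cu library and 0.153% in the DU library. The opposite was seen in replicate 2 of Pb at 6 mo, with a 5p share of 40.7% (exact 95% interval 37.7% to 43.8%), in replicate 4 of W at 3 mo with 44.8% (42.5% to 47.1%) and in replicate 1 of Co at 1 mo with 41.8% (38.4% to 45.2%). Intervals and floors cover counting error only. Across libraries of 20000 or more counts, the log2 levels of the 2 arms had a Pearson r of 0.459 (Spearman rho 0.626, n = 132). Within the libraries of 1 mo r was 0.557 (n = 35), within those of 3 mo 0.207 (n = 32), within those of 6 mo 0.338 (n = 34) and within those of 12 mo 0.798 (n = 31). The points share library depth and scale factors.

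**Figure D5:**
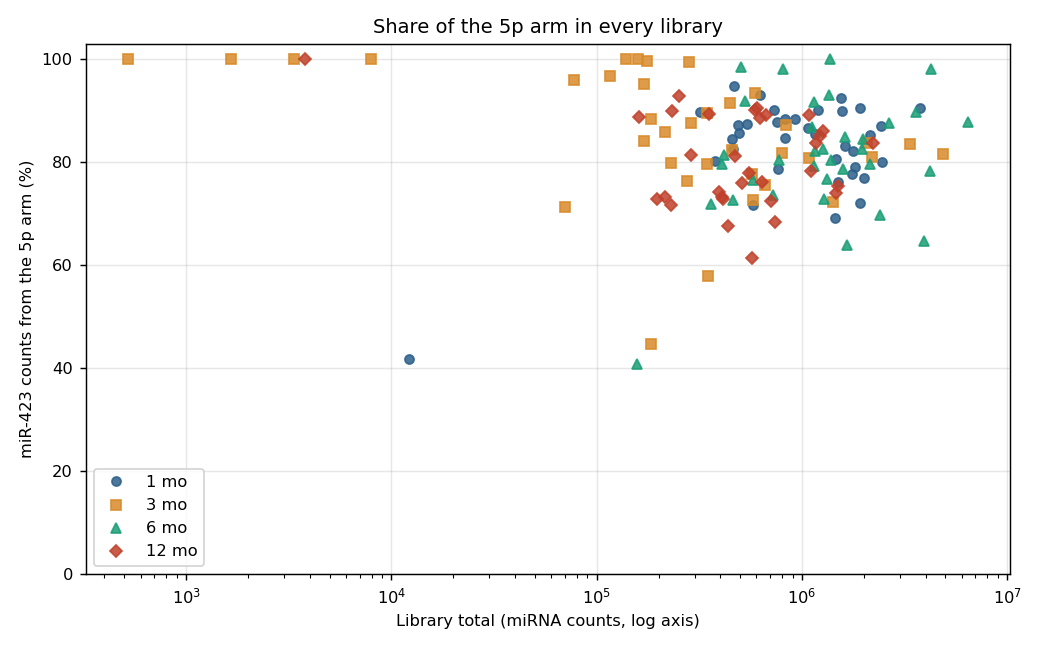
Share of miR-423 counts that came from the 5p arm (y axis, %) against the library total (x axis, counts, log axis), 1 point per library and 1 colour per month. Most libraries lie between 60% and 95%; 1 library of 1 mo, 2 of 3 mo and 1 of 6 mo lie under 60%.

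The miRNAs whose levels followed miR-423-5p most closely over the 132 libraries were miR-877 (r = 0.602), miR-191a-5p (0.547), miR-351-3p (0.531), miR-150-3p (0.526) and miR-25-5p (0.517), out of 319 ranked by Pearson r of log2 CPM. miR-423-3p itself ranked number 10 for miR-423-5p. For miR-423-3p the nearest were miR-25-5p (0.587), miR-148a-3p (0.573), miR-150-3p (0.541), miR-877 (0.541) and miR-125b-2-3p (0.536), and miR-423-5p ranked number 18. miR-25-5p, miR-150-3p and miR-877 thus stood in both lists, and miR-877 remained first for miR-423-5p after centring within months (r = 0.535). At 3 mo miR-877, miR-351-3p and miR-125b-2-3p each had a median of 0 CPM. Their r values thus take in many libraries in which they were not counted. In Ta libraries, mean miR-877 was 217, 36, 442 and 13.4 CPM at 1, 3, 6 and 12 mo, and mean miR-191a-5p was 252552, 49669, 374506 and 26254 CPM at those months. Both were thus highest at 6 mo and lowest at 12 mo in Ta, the order of miR-423-5p there at those months. The sequence of miR-877 is given with its seed in capitals, to show that the miRNA nearest in level has another seed than miR-423-5p (RefSeq, GRCr8).
miR-877: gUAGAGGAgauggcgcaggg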

How the data were processed

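Serum small RNA was deposited by the authors as raw counts of 471 mature rat miRNAs in each library. Per the labels' protocols, a Norgen small RNA kit and Illumina NextSeq sequencing were used. The assembly was Rnor 6.0 per the submitters' processing notes. For the aligner, the counting tool and the miRNA annotation, what was used is not given in the sources used here.

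miR-423-5p and miR-423-3p, and the lists of serum reference, erythrocyte, platelet, muscle and liver miRNAs, were chosen with earlier results of these data known, and the lists are from general knowledge. Of the erythrocyte names, 1 (miR-486) was not matched in the table. Named besides the members are the 5 miRNAs of highest Pearson r with each, seed sharers, and list members where a list is described.

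Models were fitted with edgeR 4.0.16 and limma 3.58.1 under R 4.3.3. Low counts were removed with filterByExpr (minimum count 10, minimum total 15), leaving 270 miRNAs at 1 mo, 167 at 3 mo, 272 at 6 mo, 224 at 12 mo and 320 over all libraries; both members passed each of these filters. Libraries were scaled with TMM factors, and quasi-likelihood models held 1 mean per metal and month. Metals were set against Ta within the libraries of 1 month, with factors of that month; months and shifts were fitted over all libraries. A call is an adjusted p under 0.05 (Benjamini-Hochberg over all miRNAs of a comparison). Levels are CPM with TMM factors over all libraries; log2 CPM used a prior count of 2. The arm ratio used a pseudocount of 0.5 and 100000 resamples. Shares have exact Clopper-Pearson intervals at 95%, and the limit of a count of 0 is 3 counts.

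Alternatives were RLE size factors, library totals alone, no low-count filter, DESeq2 1.42.0, a replicate block, a haemolysis covariate, libraries of 20000 or more counts, only the 2 groups compared, Ni included or left out, Ta alone, and leaving out each library. The models were tested on simulated data. No columns were unmapped and 0 libraries had identical counts.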

Additional observations from a re-analysis of the deposited data

Results flagged for a closer look

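Within 66 sets of 4 libraries (a metal and month for 1 arm), 7 held a library far from the other 3. The rate for chance alone was not computed for these values, so the count is not read as an excess. For miR-423-5p these were replicate 3 of Fe at 1 mo (17500 CPM, others 4877 to 6754 CPM), replicate 3 of Ni at 3 mo (9669 CPM, others 3605 to 4535 CPM, in a library of 3343 counts) and replicate 2 of Co at 6 mo (9701 CPM, others 3558 to 4227 CPM). For miR-423-3p they were replicate 1 of Co at 1 mo (16163 CPM, others 1329 to 2280 CPM, in a library of 12213 counts), replicate 1 of Fe at 3 mo (443 CPM, others 915 to 951 CPM), replicate 4 of Al at 6 mo (207 CPM, others 1265 to 1399 CPM) and replicate 3 of DU at 12 mo (2394 CPM, others 1107 to 1307 CPM). Of these 7, 2 are in libraries under 20000 counts.

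In Fe, Cu, Al and DU, every library held more miR-423-3p than every Ta library at 12 mo and less than every Ta library at 6 mo. The fitted shift of the log2 difference between those months was 3.72 in Fe, 3.60 in Cu, 3.36 in Al and 4.12 in DU. This change of direction was not tested, because the members were chosen on the shift of miR-423-5p between the same months. All 4 metals share the same Ta libraries. The share of all miRNAs that changed direction in the same way was not computed, so nothing is read from these positions. In Ta, miR-423-3p averaged 398 CPM at 12 mo and 2755 CPM at 6 mo.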

How the results depend on the processing

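The fall of both arms between 1 mo and 3 mo was called in edgeR or DESeq2 under all alternatives but the Ta libraries alone. There miR-423-5p stood at -0.92 and miR-423-3p at -1.32, short of the threshold. Many other miRNAs were called too, of 320 tested 122 with RLE size factors, 129 with library totals and 175 with DESeq2. Leaving out each library gave -1.55 to -1.34 for miR-423-5p and -1.95 to -1.59 for miR-423-3p, all called. With Ta alone other log2 differences moved as well: for miR-423-5p to -2.85 (12 mo against 1 mo), -1.93 (12 mo against 3 mo), -3.55 (12 mo against 6 mo), 0.70 (6 mo against 1 mo) and 1.62 (6 mo against 3 mo), and for miR-423-3p to -2.38 (12 mo against 1 mo) and -2.94 (12 mo against 6 mo). RLE size factors gave -0.88 for miR-423-5p, 12 mo against 3 mo. The cause was not tested.

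At 1 mo, the average of miR-423-5p over the metals turned to -0.084 (RLE size factors), -0.10 (library totals), -0.11 (no filter) and -0.18 (DESeq2), and leaving out a library gave -0.13 to 0.41. At 3 mo it was 0.053 without the libraries under 20000 counts, and -0.58 to 0.078 leaving out a library. The average of miR-423-3p at 3 mo turned to 0.20 (RLE), 0.30 (DESeq2) and 0.52 (replicate block), and ran from -0.38 to 0.89. None of these averages was called. Ni at 1 mo for miR-423-3p was 0.085 with the haemolysis covariate and -0.32 to 0.049 leaving out a library. Co at 1 mo for miR-423-3p was called with library totals (2.72, then 1 of 8 metals), where 3 of 270 miRNAs were called in Co. It ran from 0.15 without its replicate 1, the near-empty library, to 2.34 without its replicate 4. Without replicate 4 it was called (adjusted p = 0.038, edgeR, 0.038 to 1.0 over the alternatives). The share of all miRNAs called there was not computed.

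At 6 mo, untested values of miR-423-3p moved by more than the replicate SD: with library totals to -1.83 (Cu), -1.06 (Fe), -1.66 (Ni) and -1.44 (W), with the haemolysis covariate to -1.96 (Cu) and -1.62 (Ni), with DESeq2 to -1.19 (Fe) and -1.10 (W), with RLE to -1.24 (Fe), and with no filter to -1.42 (W). Leaving out a library gave -1.43 to -0.59 (Co), -1.52 to -0.88 (Cu), -1.90 to -1.18 (Fe), -1.62 to -1.04 (Ni) and -1.25 to -0.67 (W). For miR-423-5p the upper ends came without replicate 2 of Ta: -1.51 to 0.19 (Al), -2.09 to -0.57 (Co), -2.27 to -0.53 (Cu), -2.41 to -0.63 (DU), -2.61 to -1.02 (Fe), -2.53 to -0.92 (Ni), -2.09 to -0.59 (Pb), -2.48 to -0.81 (W) and -2.18 to -0.61 (average); the shifts ran from 3.43 to 5.12 (Cu), 2.43 to 3.60 (Pb) and 3.14 to 5.17 (DU). At 12 mo, leaving out a library gave 2.04 to 2.99 (DU) and -0.34 to 0.76 (W). With library totals the shifts of miR-423-5p were 3.42 (DU) and 2.97 (Fe), and that of miR-423-3p was 2.83 (Fe).

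Shared replicate numbers did not pair the libraries: in 2 of 31 comparisons every pair deviated together (r over 0.1), the median r was 0.025, and with the replicate block the fall between 1 mo and 3 mo was -1.43 for miR-423-5p and -1.86 for miR-423-3p. Differences by metal between 1 mo and 3 mo were fitted with 1 setting. Of the 8 libraries with 0 counts of miR-423-3p, 5 held under 20000 counts and 3 held more.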
